A study of Mus musculus with 12 samples.

Results

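The genes described are 9 regulators and signals of the primitive streak and the mesoderm that leaves it: Eomes, Tbx6, Mixl1, Evx1, Mesp1, Mesp2, Foxc1, the apelin receptor gene Aplnr and its ligand gene Apln. They were taken as every probe set whose single gene symbol in the platform annotation is one of these names, which gave 12 probe sets of 45265 on a pair of Affymetrix mouse arrays that name 18193 genes singly. All 12 were on array A (MOE430A) and 0 on array B (MOE430B). The study compared R1 cells, a mouse embryonic stem cell line, after differentiation as embryoid bodies (3 RNAs, D1 to D3) with R1 cells labelled undifferentiated and described as kept under regular growth conditions (3 RNAs, U1 to U3). All RNAs were run on both array types, a single time on each. Both groups carry the same culture wording in the labels, D-MEM with 10% fetal bovine serum, glutamax, non-essential amino acids and antibiotics, in bacterial Petri dishes at 5% CO2 for 5 days, so the labels do not say which step set the groups apart. An estimated purity of 95% is given for the undifferentiated cells only. The labels do not say whether RNAs of 1 group come from different cultures, and p-values therefore cover no more than the differences among these RNAs, possibly technical ones. No genotype change or compound is named for either group.

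In the mouse embryo the primitive streak forms where Nodal, BMP and Wnt signals meet in the epiblast, and cells that pass through it become mesoderm and definitive endoderm. Eomes and Tbx6 are T-box factors, Mixl1 and Evx1 homeodomain factors, Mesp1 and Mesp2 basic helix-loop-helix factors and Foxc1 a forkhead factor, and each is transcribed in the streak or in mesoderm derived from it. Aplnr is a G protein-coupled receptor found on nascent mesoderm and later on endothelium, and it has a pair of peptide ligands, apelin (Apln) and Apela. Embryoid bodies are aggregates of embryonic stem cells that form derivatives of the germ layers in suspension.

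The deposited signals were on a linear scale, and the authors had scaled every array to a trimmed mean of about 1500 units (1500.1 to 1500.5). Differences below are log2, differentiated minus undifferentiated, with the standard error of the limma fit (R), after values under about 96.0 deposited units were raised to that floor. A probe set was called at an adjusted p under 0.05 (Benjamini-Hochberg over all probe sets tested on its array), and 18025 of array A and 20344 of array B were tested. The RNA with the lowest median correlation with the others was D1 among arrays of type A (0.883, others 0.913 to 0.923) and U2 among those of type B (0.705, others 0.815 to 0.855). For array A the differentiated RNAs and U1 were hybridised to arrays of lot 1, and the other undifferentiated RNAs to lot 2. One fluidics station processed all differentiated arrays of type A and another all undifferentiated ones, so an effect of the station cannot be told apart from one of differentiation. The labelled cell type could be checked against its markers: Pou5f1 read 9707, 11786 and 12633 in the differentiated RNAs and 14016, 13703 and 13303 in the undifferentiated RNAs, and 1 of 9 stem cell markers, Klf4, fell. All 9 had differences below 0 (median -0.63), and their summed signal was 62493 to 133546 in differentiated RNAs and 161828 to 186445 in undifferentiated RNAs. Dppa5a led that sum with 27618, 67021 and 73517 in differentiated RNAs and 100011, 113518 and 107367 in undifferentiated RNAs. The groups overlapped for Nanog, Sox2, Esrrb and Fbxo15.

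Of the 9 genes, Aplnr and Eomes rose in differentiated cells, each by 1 of its 2 probe sets, and no member fell by the test. The strongest was Aplnr, about 5.23-fold higher in differentiated cells on one probe set, followed by Eomes at 3.10-fold. Foxc1 probe set 1419485_at was at the floor in 2 differentiated and 2 undifferentiated arrays and did not pass the filter on low signals. Of the 11 probe sets that passed, 2 were called, both higher, where 2.87% of all array A probe sets were called and 1.31% were called higher. Unadjusted p was under 0.05 for 3 of the 11, the third being the other Eomes probe set, where 15.8% of all array A probe sets had such a p. The groups did not overlap for 5 members that were higher in differentiated cells (11% of all array A probe sets), namely both Eomes probe sets, Evx1, Apln and one Aplnr probe set. They did not overlap for 1 that was lower in differentiated cells, Tbx6 (10.1% of all array A probe sets). The difference was above 0 for 8 of the 11 and below 0 for 3, with a median of 0.65 against 0.02 over all array A probe sets tested. These are bulk RNAs, in which fewer cells of a type and less RNA per cell cannot be told apart.

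**Figure D1:**
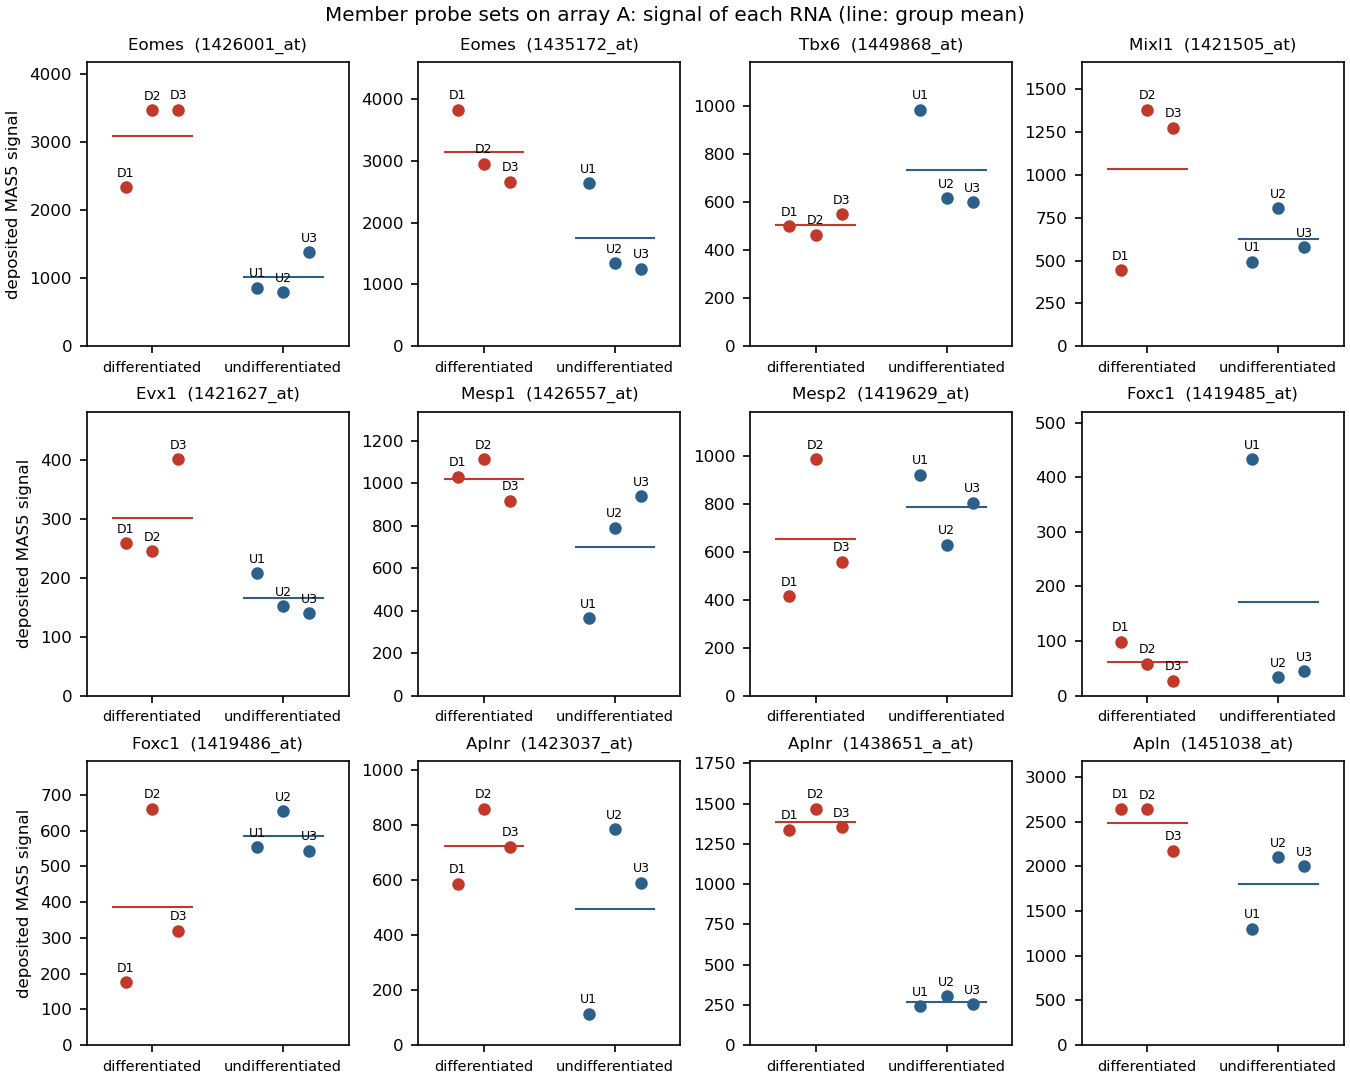
Deposited signal (scaled by the authors) of each of the 12 member probe sets, each panel on its own linear axis. The 3 differentiated RNAs and, to their right, the 3 undifferentiated RNAs are shown, 1 point per RNA. The differentiated points of Aplnr 1438651_a_at lie between 1336 and 1469, above the undifferentiated points between 242 and 302, while the Mixl1 and Mesp2 points of the groups interleave.

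**Figure D2:**
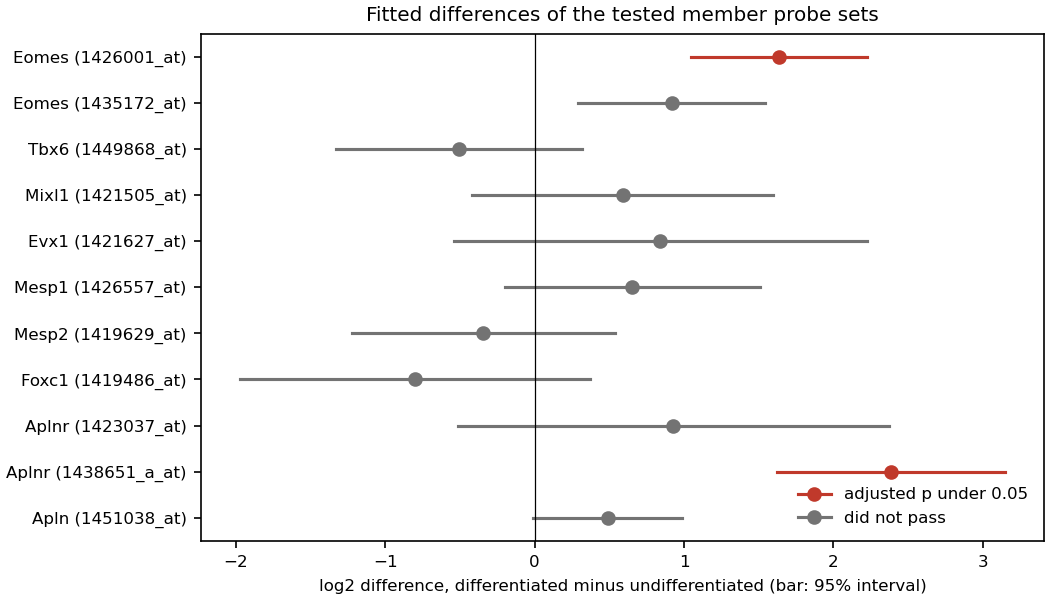
Log2 difference, differentiated minus undifferentiated, with the 95% confidence interval of the limma fit for the 11 member probe sets that passed the filter on low signals. The intervals of both Eomes probe sets and of Aplnr 1438651_a_at lie above 0, and the intervals of the other 8 include 0.

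Eomes encodes eomesodermin, a T-box factor needed for definitive endoderm and for the departure of mesoderm from the streak, and it is also active in trophoblast and visceral endoderm. Probe set 1426001_at read 2340.4, 3476 and 3483 in D1, D2 and D3, and 860.4, 797.7 and 1382 in U1, U2 and U3. Every differentiated value was above every undifferentiated value, and the lowest differentiated RNA was 1.69 times the highest undifferentiated one. The difference was 1.63 ± 0.27 (limma, adjusted p = 0.00839, 95% confidence interval 1.04 to 2.22). Probe set 1435172_at read 3835, 2954 and 2663 in the differentiated RNAs and 2644, 1345 and 1255 in the undifferentiated RNAs. Its groups did not overlap but nearly touched, since U1 came just under D3. The difference there was 0.92 ± 0.28, which did not pass (limma, adjusted p = 0.127, 95% confidence interval 0.29 to 1.54). Eomes therefore passed on one probe set, and on the other pointed the same way with an interval that overlaps the first.

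Markers of the other tissues that use Eomes were read beside it. In the trophoblast list 0 of 8 tested genes passed the test, but 6 of the 8 were above 0, with a median of 0.51. Elf5, Gata3, Prl3d1 and Cdx2 of that list were not tested. Tpbpa read 344.9, 355.6 and 372.6 in D1 to D3, and 53.5, 122.4 and 86.6 in U1 to U3. Its U1 and U3 values were under the floor, and its difference was 1.78 ± 0.65 (limma, adjusted p = 0.203). The summed signal of the list ranged from 7152 to 10323 in differentiated RNAs and from 6951 to 8215 in undifferentiated RNAs. In the extraembryonic endoderm list 7 of 11 rose and 0 fell. Sox7, Hnf4a, Cubn and Amn did not pass (0.73, 0.21, 0.05 and 0.02), and Afp was not tested. The summed signal of this list ranged from 30893 to 38692 in differentiated RNAs and from 5088 to 7107 in undifferentiated RNAs. Spink1 led that sum with 17213, 15526 and 21182 in differentiated RNAs and 1081, 1151 and 1252 in undifferentiated RNAs. The part of the markers of these lists in the Eomes result was not tested.

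Eomes lies on mouse chromosome 9, and the 250 bases before its RefSeq start (build GRCm38.p6, chr9:118477939-118478188, plus strand) are shown because it is the called member with a promoter entry, with the matches to CCAAT in capitals, 5′ to 3′.
Eomes: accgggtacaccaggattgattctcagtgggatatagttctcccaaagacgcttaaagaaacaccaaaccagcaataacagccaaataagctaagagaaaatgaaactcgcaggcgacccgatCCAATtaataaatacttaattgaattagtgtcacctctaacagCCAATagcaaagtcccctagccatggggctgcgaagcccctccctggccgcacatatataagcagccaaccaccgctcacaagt
The first match lies 127 to 123 bases before the start and the second 84 to 80 bases before it. Of all 32851 promoters tabulated, 33.8% hold a CCAAT on either strand, so the match is common. Also searched on both strands were GGTGTGA, a T-box core, in 3.33% of all promoters and 0 of the 7 member promoters with an entry, and AATCCACA, a core for the Nodal effector FOXH1, in 0.718% of all and 0 of the 7. TATAAA, the TATA box, was in 12.4% of all promoters and among the members in Tbx6 only, 43 to 38 bases before its start. Mixl1 and Aplnr are named only.

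Tbx6 encodes the T-box factor that keeps streak-derived cells in the presomitic fate. It read 499.3, 464.9 and 549.4 in D1 to D3, and 985.1, 615.2 and 600.5 in U1 to U3. All 3 differentiated values were under all 3 undifferentiated values, with a narrow gap to U2 and U3. The difference of -0.50 ± 0.37 did not pass (limma, adjusted p = 0.584, 95% confidence interval -1.33 to 0.32). Against U1 alone the differentiated mean differed by -0.97, and against the mean of U2 and U3 by -0.27. The pair of T-box members thus had differences of opposite sign, of which only that of Eomes passed.

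Mixl1, a homeodomain factor induced by Nodal signalling in the streak and required for normal endoderm formation, varied among the differentiated RNAs. It read 444.7, 1382 and 1275 in D1, D2 and D3, and 493.5, 807.1 and 578.8 in U1, U2 and U3. D1 was under every undifferentiated RNA, and D2 and D3 were over all of them. The difference was 0.59 ± 0.46 (limma, adjusted p = 0.609, 95% confidence interval -0.42 to 1.60). Without D1 it was 1.11 (limma, adjusted p = 0.115, unadjusted p = 0.00656), without D2 0.30 and without D3 0.35. D1 was also the differentiated RNA that stood lowest in correlation with the other arrays, and its stem cell markers differed on average from the undifferentiated mean by -1.35 on the log2 scale, beside -0.56 in D2 and -0.29 in D3. The part of either in the Mixl1 values was not tested.

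Evx1, the homeodomain factor of the posterior streak, gave low signals. It read 258.8, 245.4 and 401.8 in the differentiated RNAs and 207.8, 151.8 and 140.3 in the undifferentiated RNAs. No values overlapped, yet the lowest differentiated RNA was 1.18 times the highest undifferentiated one. The difference of 0.84 ± 0.63 did not pass (limma, adjusted p = 0.587, 95% confidence interval -0.54 to 2.22). Its interval was wider than that of any other tested member except Aplnr 1423037_at. The SD of its log2 values was 0.39 in differentiated and 0.30 in undifferentiated RNAs, beside 0.91 and 0.36 for Mixl1.

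Mesp1 and Mesp2 are neighbouring genes on mouse chromosome 7. Mesp1 marks the first mesoderm to leave the streak, including the forerunners of heart and vessels, and Mesp2 sets the segment boundaries of the presomitic mesoderm. The 250 bases before each RefSeq start (GRCm38.p6) are shown because these neighbours had differences of opposite sign, although neither difference passed the test. The stretch for Mesp1 is chr7:79793591-79793840 on the minus strand, and that for Mesp2 is chr7:79810477-79810726 on the plus strand, both 5′ to 3′. Capitals mark CTTTGA or its reverse complement (TCF/LEF core) in Mesp1 and GGGCGG (GC box) in Mesp2.
Mesp1: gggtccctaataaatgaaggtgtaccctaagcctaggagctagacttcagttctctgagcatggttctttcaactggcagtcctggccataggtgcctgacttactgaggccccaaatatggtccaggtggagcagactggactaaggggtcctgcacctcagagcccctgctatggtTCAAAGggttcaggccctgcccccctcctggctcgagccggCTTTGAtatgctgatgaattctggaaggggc
Mesp2: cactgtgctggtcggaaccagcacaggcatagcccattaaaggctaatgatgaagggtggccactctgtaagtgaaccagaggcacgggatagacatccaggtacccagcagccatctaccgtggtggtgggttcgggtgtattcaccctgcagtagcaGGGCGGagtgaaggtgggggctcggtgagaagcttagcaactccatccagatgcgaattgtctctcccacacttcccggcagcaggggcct
The matches in Mesp1 lie 72 to 67 bases before its start, on the opposite strand, and 31 to 26 bases before it. CTTTGA occurs in 13.8% of all promoters and in 1 of the 7 member promoters, that of Mesp1. GGGCGG occurs in 32.7% of all promoters and in 3 of the 7, those of Mesp2, Apln and Foxc1, with the Mesp2 match 91 to 86 bases before the start.

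Mesp1 read 1031, 1113 and 916.6 in D1, D2 and D3, and 363.6, 789.7 and 939.6 in U1, U2 and U3. The groups overlapped, because U3 was above D3, and U1 lay far under the other undifferentiated RNAs. The difference was 0.65 ± 0.39 (limma, adjusted p = 0.473, 95% confidence interval -0.20 to 1.51). Mesp2 read 415.4, 989.2 and 560.2 in the differentiated RNAs and 924.4, 630.6 and 806.0 in the undifferentiated RNAs, so its highest and its lowest value were both from differentiated cells. The difference was -0.34 ± 0.40 (limma, adjusted p = 0.76, 95% confidence interval -1.22 to 0.54), and with 1 RNA left out it ranged from -0.69 without D2 to -0.06 without D1, with -0.22 without U1. Neither gene differed beyond the spread between RNAs. In the cardiac muscle list 0 of 8 genes passed in either direction, with a summed signal of 4974 to 6314 in differentiated RNAs and 6229 to 7743 in undifferentiated RNAs.

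Foxc1, a forkhead factor of paraxial and somitic mesoderm that mesenchymal cells also express, had 2 probe sets. Probe set 1419486_at read 176.0, 661.7 and 319.9 in D1, D2 and D3, and 554.2, 653.5 and 543.7 in U1, U2 and U3. D1 and D3 were under all undifferentiated RNAs and D2 was over them. The difference was -0.80 ± 0.53 (limma, adjusted p = 0.534, 95% confidence interval -1.97 to 0.37). It was -0.34 without D1 and -1.29 without D2 (limma, adjusted p = 0.774 and 0.304). Probe set 1419485_at read 98.8, 58.7 and 27.2 in differentiated RNAs and 433.4, 33.7 and 44.9 in undifferentiated RNAs, so U1 alone stood clearly above the floor. Of 10 fibroblast markers tested in the same RNAs, 4 fell (S100a4, Col1a2, Bgn and Mgp) and 0 rose. Fap, Lum and Dcn were above 0 without passing (1.005, 0.84 and 0.74), and the summed signal of the list was 5337 to 10266 in differentiated RNAs and 18956 to 20960 in undifferentiated RNAs. Their part in the Foxc1 values was not tested.

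Aplnr showed the largest called difference of the members. Probe set 1438651_a_at read 1336, 1469 and 1353 in D1, D2 and D3, and 242.1, 302.3 and 253.5 in U1, U2 and U3. The groups lay far apart, with a lowest differentiated RNA 4.42 times the highest undifferentiated one. Its means were 1386 ± 72.2 in differentiated cells and 265.9 ± 31.96 in undifferentiated cells (SD, n = 3 each). The difference was 2.39 ± 0.35 (limma, adjusted p = 0.00459, 95% confidence interval 1.62 to 3.15). The other Aplnr probe set, 1423037_at, read 586.6, 859.5 and 720.9 in the differentiated RNAs and 113.9, 784.7 and 590.2 in the undifferentiated RNAs. U2 and U3 lay among the differentiated values and only U1 was low. Its difference of 0.93 ± 0.65 did not pass (limma, adjusted p = 0.563, 95% confidence interval -0.52 to 2.37). The probe sets of Aplnr thus disagree on U2 and U3, and the call rests on one of them. Endothelial and blood markers, which include cells that use Aplnr, gave 0 of 11 called in either direction, with a summed signal of 7975 to 11108 in differentiated RNAs and 9052 to 11832 in undifferentiated RNAs.

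Apln, the gene of the apelin peptide, read 2645, 2635 and 2173 in D1, D2 and D3, and 1299.9, 2103 and 2004 in U1, U2 and U3. Every differentiated value was above every undifferentiated value, with a small gap between D3 and U2. The difference was 0.49 ± 0.23, which did not pass (limma, adjusted p = 0.329, unadjusted p = 0.0537, 95% confidence interval -0.01 to 0.99). Apela, the other ligand of the receptor and not a member, has 2 probe sets on array B, where 0.0197% of probe sets were called. Its probe set 1436287_at read 4759, 5592 and 4043 in differentiated RNAs and 8480.2, 5551 and 5541 in undifferentiated RNAs. The difference was -0.43 ± 0.27 (limma, adjusted p = 0.841), or -0.53 without U2, the array that stood apart on array B, and -0.22 without U1. Apela 1442571_at differed by -1.03 ± 0.79 (limma, adjusted p = 0.845), or -1.43 without U2, and with 1 RNA left out it ranged from -1.80 without D1 to -0.63 without D2, with -0.66 without D3. The receptor was therefore the called gene of the 3, and neither ligand gene passed.

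The undifferentiated RNA U1 shared its array lot with all differentiated RNAs, which allowed a second reading of each member within lot 1. For the called probe sets both readings were alike: Aplnr 1438651_a_at stood 2.52 above U1 and 2.32 above the mean of U2 and U3, and Eomes 1426001_at stood 1.82 above U1 and 1.54 above U2 and U3. With the lot as a block, which leaves U1 as the only undifferentiated array in lot 1, the Aplnr difference was 2.52 (limma, adjusted p = 0.0813) and that of Eomes 1.82 (limma, adjusted p = 0.093), so neither passed. The other probe sets of both genes depended on U1. Aplnr 1423037_at stood 2.65 above U1 and 0.07 above U2 and U3, and Eomes 1435172_at stood 0.24 above U1 and 1.26 above U2 and U3. Without U1, Eomes 1435172_at passed (1.26, limma, adjusted p = 0.0192). For Mesp1 the differences were 1.48 and 0.24, and for Apln 0.93 and 0.27. U1 lay more than 1 log2 unit from the mean of U2 and U3 for 3 of the 11 member probe sets (27.3%), against 2393 of 18025 probe sets on array A (13.3%). Whether lot or the RNA set U1 apart was not tested.

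**Figure D3:**
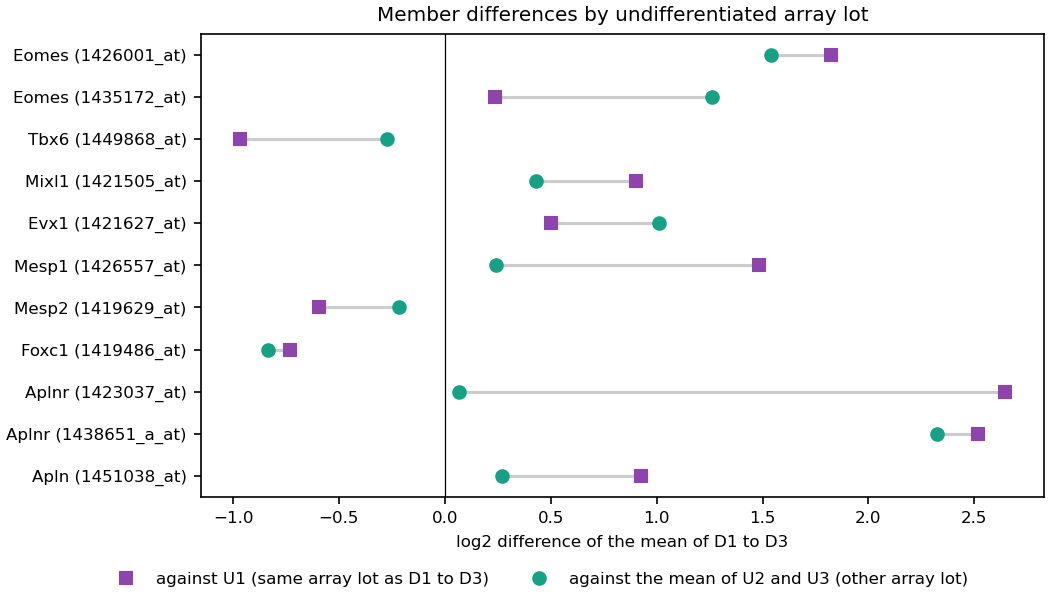
Log2 difference of the differentiated mean from U1 (same array lot) and from the mean of U2 and U3 (other lot) for each member probe set. The points of Aplnr 1438651_a_at (2.52 and 2.32) and Eomes 1426001_at (1.82 and 1.54) lie close together, and those of Aplnr 1423037_at (2.65 and 0.07) lie farthest apart among probe sets that passed the filter.

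Among themselves the members did not vary as 1 group. Pearson's r was computed over the 6 array A values of each gene's representative probe set, a description in which the group difference and the array are shared. Mesp1 and Apln ran together (0.96), and Tbx6 ran opposite to Apln (-0.99) and Mesp1 (-0.98), and in these 3 genes U1 lay apart from the mean of U2 and U3, by -1.24 in Mesp1, -0.66 in Apln and 0.70 in Tbx6. Eomes was represented here by 1435172_at, which was not called, and Aplnr by 1438651_a_at, which was. Evx1 followed Aplnr (0.80) and Eomes (0.76), and Mesp2 followed Foxc1 (0.86). Aplnr also ran with Apln (0.75) and Eomes (0.74) and opposite to Tbx6 (-0.76). The neighbours Mesp1 and Mesp2 gave -0.36.

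Over the same 6 arrays the closest pattern among 16413 probe sets of other genes was searched for each member. Closest to Aplnr were Tpbpa, Vamp8 and Fundc1 (each 0.997), and to Eomes 1435172_at Fam107b (0.996), Ndufa10 (0.995) and Smc4 (0.990). Mixl1 was most like Tmpo (0.992), Dgcr6 (0.991) and Ctnnb1 (0.991), and Evx1 like Vps26c (0.992), Rab2a (0.991) and Sin3b (0.986). Mesp1 was nearest to Med24 (0.998), Rfxank (0.993) and Btf3l4 (0.992), and Mesp2 to Cmc2 (0.988), Fgfr4 (0.983) and Ankzf1 (0.979). Tbx6 came closest to Srpk1 (0.994), Cavin4 (0.987) and Nfic (0.979), Foxc1 to Siglec1 (0.998), Stim1 (0.995) and Tctex1d4 (0.993), and Apln to Fam210b (0.991), Srgap3 (0.989) and Fam83g (0.987). Over so few arrays such values are common: between 16 probe sets (Tbx6) and 181 (Aplnr) exceeded an r of 0.95 for a given member.

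The genes that act with the members were counted by list, 1 probe set a gene, where 2.08% of all 16461 genes tested were called, 152 higher and 191 lower in differentiated cells. Among the signals that induce the streak 0 of 22 rose and 3 fell, with a median difference of -0.29 against 0.01 over all genes. These were Nodal, its relative Gdf3 and its co-receptor Tdgf1. Nodal read 987.2, 2705 and 2230.2 in D1 to D3, and 7652, 6336 and 6863 in U1 to U3. Its difference was -1.93 ± 0.31 (limma, adjusted p = 0.00761), beside -1.94 ± 0.19 for Gdf3 (limma, adjusted p = 0.000578) and -2.04 ± 0.29 for Tdgf1 (limma, adjusted p = 0.00405). Nodal was lowest in D1, the differentiated RNA in which Mixl1 and the summed stem cell markers were also lowest. Mesp2, Foxc1 1419486_at, Eomes 1426001_at and both Aplnr probe sets were lowest in D1 among differentiated RNAs too. Eomes 1435172_at, Apln and Foxc1 1419485_at were highest there, and Evx1, Mesp1 and Tbx6 lay in between. The stem cell sums did not overlap between the groups, but Dppa5a led them, and Nanog, Sox2, Esrrb and Fbxo15 each overlapped. The part of the stem cell markers in the values of Nodal, Gdf3 and Tdgf1 was not tested.

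Among the intracellular effectors of Nodal, BMP and Wnt 1 of 13 rose and 0 fell, with a median of 0.26. This was Ctnnb1, the gene of beta-catenin (0.74 ± 0.11, limma, adjusted p = 0.00597). Smad4, the shared partner of the receptor-activated Smads, differed by 0.55 ± 0.14 (limma, adjusted p = 0.0693) and did not pass. Of the feedback targets and antagonists 4 of 20 rose and 2 fell, with a median of -0.16. Cer1, a secreted Nodal, BMP and Wnt antagonist, read 1594, 1357 and 1643 in differentiated RNAs and 143.1, 619.6 and 68.6 in undifferentiated RNAs, the last under the floor (2.90 ± 0.62, limma, adjusted p = 0.0328). The Wnt antagonist Dkk1 rose by 2.05 ± 0.44 (limma, adjusted p = 0.036), and the Nodal antagonist Lefty1 fell by 2.30 ± 0.22 on the log2 scale (limma, adjusted p = 0.00052). The BMP targets Id1 and Id3 also rose and Notum, a Wnt deacylase, fell.

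Among other transcription factors of the streak, early mesoderm and endoderm 5 of 22 rose and 0 fell, and 16 were above 0, with a median of 0.65. The 5 were Lhx1, Foxa2, Gata6, Sox17 and Hhex, all of which are known from anterior or definitive endoderm or from extraembryonic endoderm. Lhx1 read 2537, 1277 and 1529 in differentiated RNAs and 44.4, 44.6 and 110.8 in undifferentiated RNAs, of which 2 were under the floor (4.08 ± 0.46 after flooring, limma, adjusted p = 0.0011). Foxa2 read 3284, 3593 and 3184 in differentiated RNAs and 521.5, 746.0 and 884.4 in undifferentiated RNAs (2.26 ± 0.24, limma, adjusted p = 0.000855). Gata6 differed by 1.51 ± 0.32 (limma, adjusted p = 0.0349). The rise of 7 of 11 extraembryonic endoderm markers given above moved with these genes too, and its part in them was not tested.

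Of presomitic and paraxial mesoderm genes, which surround Tbx6, Mesp2 and Foxc1, 1 of 19 rose and 1 fell, with a median of -0.16. Cyp26a1, which degrades retinoic acid, rose by 3.06 ± 0.42 (limma, adjusted p = 0.00359), and Fgf17 fell by 1.60 ± 0.26 on the log2 scale (limma, adjusted p = 0.00761). Of the surface and migration genes of mesoderm 1 of 17 rose and 3 fell, with a median of -0.17. The chemokine receptor gene Cxcr4 read 1149, 872.2 and 1007 in differentiated RNAs and 145.5, 207.2 and 183.7 in undifferentiated RNAs (2.50 ± 0.43, limma, adjusted p = 0.0111). Fibronectin (Fn1, -1.17 ± 0.12, limma, adjusted p = 0.000641), integrin beta 1 (Itgb1, -0.90 ± 0.21, limma, adjusted p = 0.0497) and vimentin (Vim) fell, in the RNAs in which 4 of 10 fibroblast markers fell, a part that was not tested. Of the genes that process apelin or carry the receptor's signal 1 of 17 rose and 1 fell, with a median of 0.16. Gnai3, an inhibitory G protein subunit, rose by 0.61 ± 0.13 (limma, adjusted p = 0.0357), and the kinase gene Sgk1 differed by -0.89 ± 0.19 (limma, adjusted p = 0.0356).

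Not all of these calls were equally firm. Lefty1, Gdf3, Foxa2 and Lhx1 passed under all 16 alternative settings, and with the array lot as a block 6 of the 23 called genes of the lists passed, these 4 together with Fn1 and Cyp26a1. Cer1, Dkk1, Gata6, Hhex, Itgb1 and Sgk1 each lost the call when any of 5 RNAs was left out and Gnai3 when any of 4 was, with adjusted p up to 0.173 (limma), while their direction held. Of 18 further probe sets of the called genes 4 were called themselves, those of Cer1, Nodal, Sox17 and Vim, and 1, for Gata6 on array B, had the opposite sign (-0.13, limma, adjusted p = 0.976).

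**Figure D4:**
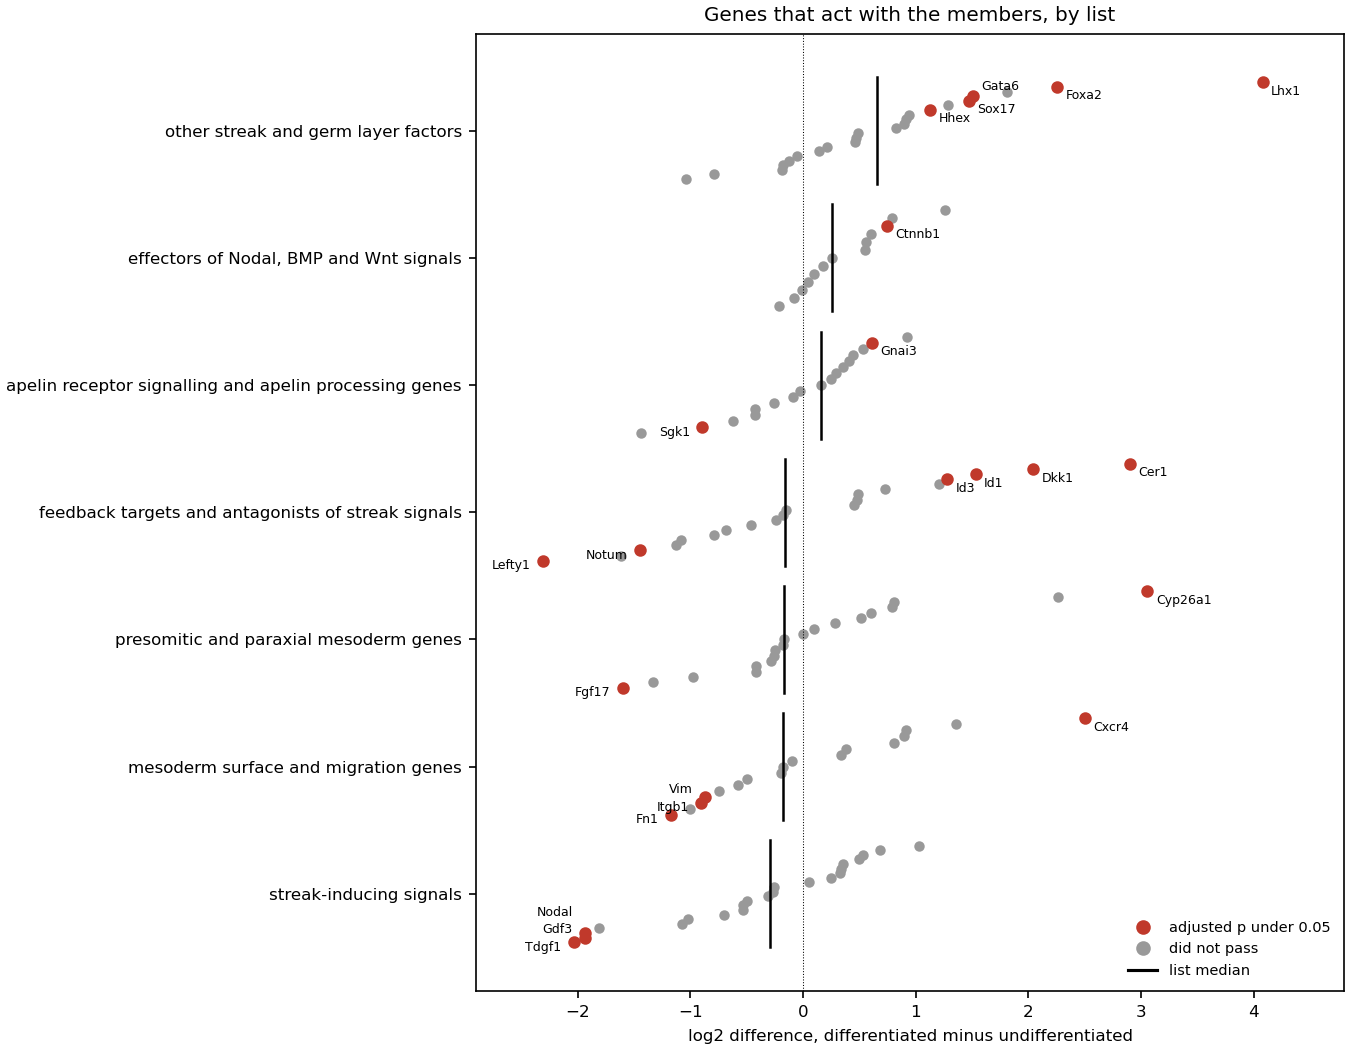
Log2 difference, differentiated minus undifferentiated, of every tested gene of 7 lists of genes that act with the members, 1 point a gene, with the list median as a bar. Called genes are named, and the list of other streak and germ layer factors has the highest median (0.65) and the streak-inducing signals the lowest (-0.29).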

How the data were processed

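Signals were made by the authors with MAS5, per the submitters' processing notes (version not given in the sources used here), and were deposited as linear intensity values per probe set, scaled by array. Array lot, fluidics station and scan day were read from the settings files deposited by the authors, whose other values were not used. Here each array was rescaled to a trimmed mean of 500 (2% trimmed at each end), rescaled values under 32 were raised to 32 and log2 was taken of the result. Control probe sets and those with a mean log2 signal under 6 were left out. Each array type was fitted alone in limma 3.58.1 (lmFit, eBayes with an intensity trend, R 4.3.3), two-sided, tested also on simulated data. An exact permutation of 3 against 3 cannot go below p = 0.1, and the number of arrays limits the precision.

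A single symbol was annotated for 20380 probe sets of array A and 14661 of array B, and several symbols for 691 and 245. A listed gene was represented by 1 probe set, on array A before array B and then by the highest mean signal. Named were all members, up to 3 called genes of largest difference in each list (2 of smallest p where fewer than 2 were called) and the 3 most similar patterns for each member. Other called genes were named after their values were seen. The members, lists and markers were chosen with earlier results of these data known. Alternatives were other scalings, floors and filters, the lot or replicate number as a block, and each RNA left out. Promoter sequences are those of RefSeq (GRCm38.p6), matched by symbol for 7 of the 9 members.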

Additional observations from a re-analysis of the deposited data

How the results depend on the processing

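Aplnr 1438651_a_at passed under 15 of 16 alternatives (2.04 to 2.52, limma, adjusted p 0.00484 to 0.0813) and Eomes 1426001_at under 12 of 16 (1.48 to 1.88, limma, adjusted p 0.00393 to 0.101). Eomes was lost with a floor of 64 (limma, adjusted p = 0.101), without the filter on low signals (limma, adjusted p = 0.0887), without the intensity trend (limma, adjusted p = 0.0969) and with the array lot as a block, under which Aplnr was lost too. The other Eomes probe set, 1435172_at, passed without U1 and with the replicate block (0.92, limma, adjusted p = 0.0321). For Evx1 the unadjusted limma p was 0.206 in the reported fit, 0.0228 without the trend and 0.0320 without the filter. Evx1 passed in none of these fits (limma, adjusted p = 0.290 without the trend and 0.315 without the filter). Of 176 differences (11 member probe sets under 16 alternatives) and 368 differences of the called genes in the lists, 0 changed sign. Represented by its other probe set, Aplnr differed by 0.93 and did not pass, and Eomes by 1.63 and passed.

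Probe sets called on array A, 518 in the reported fit, numbered 319 with p-values adjusted over both arrays together, 307 with median centring, 194 with a floor of 64, 194 without the filter, 97 without the trend, 106 with lot as a block and 190 to 497 with 1 RNA left out. Array B, 4 in the reported fit, gave 10 with adjustment over both arrays, 2 with a floor of 16, with log2(signal + 32) or with median centring, 1 without the filter or with the replicate block, 0 with a floor of 64, without the trend or with station as a block, and 0 to 2 with 1 RNA left out (1066 had an unadjusted limma p under 0.05 in the reported fit). Member probe sets called, 2 in the reported fit, were 1 with a floor of 64, without the filter or without the trend, 0 with lot as a block and 2 to 3 with 1 RNA left out. Array B holds no member probe set, so it has no such count. Of 127 genes in the lists, 23 were called, against 11 with a floor of 64 or without the filter, 5 without the trend, 6 with lot as a block and 14 to 21 with 1 RNA left out (14 without U2 and 15 without U3). Calls on array A were under 1.5 times fewer without D1, D2 or U1, and 313 without D3, 214 without U2 and 190 without U3.

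Same-numbered RNAs deviated together by r of 0.157, 0.012 and 0.073 on array A and 0.183, 0.097 and 0.118 on array B. The labels do not say that they share a culture or day, so the numbers were not taken as pairs. These values do not settle whether they are pairs. On array B, and on array A for D1 alone, each differentiated RNA correlated best with its own number. The replicate block gave 724 calls on array A, 3 of member probe sets and 27 of genes in the lists. Signals near the floor limit Foxc1 1419485_at, Evx1, Cer1 and Lhx1.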
